A study of Mus musculus with 72 samples.

Results

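Regions of open chromatin that lie between genes but close to a gene start were examined in RAW264.7 cells, a mouse macrophage-like cell line whose genotype is labelled BALB/c and whose tissue is labelled monocyte. Such a region was taken as a member when the deposited table of transposase-accessible chromatin (ATAC-seq) peaks annotated it as intergenic in both its short and its detailed annotation, which leaves out repeats and CpG islands, when it lay off chrM, and when its middle was at most 20000 bp from the nearest transcription start site (TSS). This gave 5658 peaks of the 51984 listed (10.9%). Each value below is the number of reads in the peak per 10 M reads of its library (M for megareads), as the authors deposited it, and is called normalised reads.

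The cells carried lentiviral short hairpins against the nuclear receptor corepressor NCOR (shNCOR), against the related corepressor SMRT (shSMRT) or against GFP, the control (shGFP), with 3 ATAC-seq and 3 RNA-seq libraries in each group and no added ligand or stimulus. All 3 groups shared the cell line and the lentiviral delivery of a hairpin. The labels leave unsaid whether the 3 libraries were grown or infected separately, and how many hairpins were used for a target, and the protocol text for ATAC-seq speaks of wild-type cells where the sample titles name the hairpins. The p-values below therefore measure the spread between libraries of a group, which may be technical.

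NCOR and SMRT are large scaffold proteins that bind unliganded nuclear receptors and other transcription factors and carry the histone deacetylase HDAC3 to DNA. In macrophages they are known for holding down inflammatory and lipid-metabolic genes. Intergenic sites near genes that are open to transposase often act as enhancers, where lineage factors such as PU.1, C/EBP and AP-1 bind. The gene with the nearest start is only the nearest one, and an enhancer can act on another.

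The transcript of Ncor1, which encodes NCOR and lies at chr11:62316426-62438515, was at 3.61, 4.20 and 4.30 RPKM (reads per kilobase and per M reads) in shNCOR cells, 18.9, 20.2 and 20.2 RPKM in shSMRT cells, and 18.4, 20.2 and 18.7 RPKM in shGFP cells. It was thus low in every shNCOR library and overlapped between the other 2 groups. The log2(RPKM + 1) difference from shGFP was -2.00 ± 0.06 in shNCOR cells (SE, limma adjusted p = 8.89e-10) and 0.05 ± 0.06 in shSMRT cells (adjusted p = 0.494). All 10 macrophage markers examined reached 1 RPKM, with a summed level of 8470 to 8760 RPKM in shNCOR, 10200 to 10700 RPKM in shSMRT and 7270 to 7410 RPKM in shGFP libraries. Most of that sum was Lyz2, a lysozyme gene, with means of 6548, 8104 and 5195 RPKM in the same order of groups, and the other markers did not all follow it. Mpeg1, a pore-forming protein of phagocytes, averaged 231.4, 115.3 and 155.1 RPKM, and Cd14, the lipopolysaccharide co-receptor, 598.6, 639.9 and 707.4 RPKM, in that order. None of the 4 markers each of T cells, B cells, neutrophils, mast cells, fibroblasts, epithelium and endothelium reached 1 RPKM, and the highest was 0.211 RPKM. ATAC-seq depth was 6.06 to 7.88 M reads in shNCOR, 7.07 to 10.65 M in shSMRT and 8.94 to 10.84 M in shGFP libraries. Of these reads, 54.1 to 54.9%, 47.2 to 49.3% and 50.1 to 53.5% fell in peaks in the same order of groups. All shNCOR libraries were thus shallower than all shGFP libraries, and the shSMRT libraries had the smallest share of reads in peaks. RNA-seq depth was 39.1 to 49.1 M reads.

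Sequence was at hand where a member peak overlapped the stretch from 250 bases before to 50 bases after a gene start in RefSeq (build GRCm38.p6, the build mm10 of the ATAC-seq table). This was so for 96 of the 5658 peaks, which overlapped 106 such windows, and 32 of the 96 were called in at least 1 comparison. The starts were mostly those of predicted genes that the peak table's annotation did not use. The 3 highest and the 3 lowest changes against shGFP among called peaks with at least 150 bases of such sequence are shown first, and then the start windows of 3 genes whose peaks are described below. Each reads 5′ to 3′ on the strand of the RefSeq gene, and capitals mark matches on either strand to the letters GAGGAAG (PU.1 and other ETS factors), TGANTCA (AP-1), TTGCNNAA (C/EBP), GAAA, any 2 bases and GAAA (interferon-stimulated response element, ISRE), GGGANTTCC (NF-kB), CACGTG (the E-box of MITF and TFE factors) or TGTGGTT (RUNX).
Cd276 peak, chr9:58554985-58555283, minus strand: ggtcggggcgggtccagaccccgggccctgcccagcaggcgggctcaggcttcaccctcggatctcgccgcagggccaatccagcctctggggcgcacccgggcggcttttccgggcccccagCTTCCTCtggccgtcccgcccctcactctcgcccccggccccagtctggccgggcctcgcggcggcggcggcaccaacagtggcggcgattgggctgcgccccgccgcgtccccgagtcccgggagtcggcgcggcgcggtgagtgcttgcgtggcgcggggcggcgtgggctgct
Mchr1 peak, chr15:81217006-81217198, plus strand: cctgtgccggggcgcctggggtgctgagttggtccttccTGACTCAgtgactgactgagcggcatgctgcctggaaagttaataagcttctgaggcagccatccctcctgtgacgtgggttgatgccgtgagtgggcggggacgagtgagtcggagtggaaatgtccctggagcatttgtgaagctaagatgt
Prss30 peak, chr17:23967015-23967314, plus strand: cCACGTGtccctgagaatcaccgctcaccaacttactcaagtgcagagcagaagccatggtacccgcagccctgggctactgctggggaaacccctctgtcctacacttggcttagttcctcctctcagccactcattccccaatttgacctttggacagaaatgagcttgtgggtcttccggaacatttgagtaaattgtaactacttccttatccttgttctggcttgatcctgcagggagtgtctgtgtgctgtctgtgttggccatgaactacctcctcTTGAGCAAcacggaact
Rcsd1 peak, chr1:165717733-165717969, plus strand: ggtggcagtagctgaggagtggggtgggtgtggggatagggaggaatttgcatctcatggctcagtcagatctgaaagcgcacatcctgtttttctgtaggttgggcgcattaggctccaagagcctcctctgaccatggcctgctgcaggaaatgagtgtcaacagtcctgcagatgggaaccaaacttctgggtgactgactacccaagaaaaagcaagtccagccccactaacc
Eef1a1 peak, chr9:78489112-78489411, minus strand: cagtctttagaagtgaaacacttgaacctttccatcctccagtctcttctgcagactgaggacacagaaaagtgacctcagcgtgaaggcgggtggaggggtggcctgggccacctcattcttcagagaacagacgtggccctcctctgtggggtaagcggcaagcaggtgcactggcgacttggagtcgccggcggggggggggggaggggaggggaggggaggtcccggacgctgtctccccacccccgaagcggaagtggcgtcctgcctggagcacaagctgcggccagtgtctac
Cp peak, chr3:19953925-19954204, minus strand: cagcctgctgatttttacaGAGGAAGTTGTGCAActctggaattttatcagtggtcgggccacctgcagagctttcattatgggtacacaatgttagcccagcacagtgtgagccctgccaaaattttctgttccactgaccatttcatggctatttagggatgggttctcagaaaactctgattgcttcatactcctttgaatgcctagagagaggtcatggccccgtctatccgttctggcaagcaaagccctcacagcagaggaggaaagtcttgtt
Rsad2 start, chr12:26456403-26456702, minus strand: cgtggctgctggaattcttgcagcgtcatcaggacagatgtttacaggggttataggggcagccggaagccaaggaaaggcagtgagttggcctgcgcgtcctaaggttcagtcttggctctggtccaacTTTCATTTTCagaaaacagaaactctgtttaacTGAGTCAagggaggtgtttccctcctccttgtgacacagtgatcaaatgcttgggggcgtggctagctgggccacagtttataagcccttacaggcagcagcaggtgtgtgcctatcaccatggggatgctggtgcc
Pdcd1 start, chr1:94052504-94052803, minus strand: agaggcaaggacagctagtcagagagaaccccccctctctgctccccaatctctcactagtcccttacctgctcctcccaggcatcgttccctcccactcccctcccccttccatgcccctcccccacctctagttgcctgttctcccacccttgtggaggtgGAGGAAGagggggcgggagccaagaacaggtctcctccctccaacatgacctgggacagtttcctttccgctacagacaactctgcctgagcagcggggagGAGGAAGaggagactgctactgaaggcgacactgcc
Gpr132 start, chr12:112860867-112861166, minus strand: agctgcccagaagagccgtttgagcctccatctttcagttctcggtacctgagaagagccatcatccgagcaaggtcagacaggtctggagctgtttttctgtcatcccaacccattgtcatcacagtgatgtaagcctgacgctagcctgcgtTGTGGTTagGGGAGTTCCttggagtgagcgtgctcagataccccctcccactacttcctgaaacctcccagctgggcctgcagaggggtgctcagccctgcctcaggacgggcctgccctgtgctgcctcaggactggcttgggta
In the Cd276 stretch, which covers an upstream start of Cd276 itself in RefSeq, the match is to PU.1. The Mchr1 stretch holds an AP-1 match, the Prss30 stretch an E-box and a C/EBP match, and the Cp stretch a PU.1 match that runs directly into a C/EBP match. The stretches near Rcsd1 and Eef1a1 hold none. The Rsad2 start has an ISRE and an AP-1 match, the Pdcd1 start 2 PU.1 matches, and the Gpr132 start a RUNX and an NF-kB match.

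Such letters are common. PU.1 letters were in 14.15% of the 106 windows that overlapped a member peak and in 13.63% of all 32851 RefSeq start windows. AP-1 letters were in 13.21% of the windows that overlapped a member peak and 7.81% of all windows. RUNX letters were in 12.26% and 5.27%, C/EBP letters in 10.38% and 10.8%, E-box letters in 6.6% and 7.15%, and ISRE letters in 5.66% and 3.44%, each with the member windows first. NF-kB letters were in none of the 106 and in 1.68% of all windows. The CTCF core, CCCTCT, any base and GTGG, was in 3 of the 106 windows and in 0.18% of all. A match says only that the letters occur in the window. Some windows overlapped a peak by as few as 3 bases, so a match can lie outside the peak. Windows of the same gene that start a few bases apart were counted separately.

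Of the 6 peaks with such sequence, those of Cd276 and Rcsd1 are described further on. The Prss30 peak (8109 bp downstream of the start of Prss30, a serine protease) had 202, 178 and 171 normalised reads in shNCOR, 216, 211 and 212 in shSMRT and 126, 129 and 135 in shGFP libraries. Neither knockdown overlapped the control, and the log2(value + 5) differences from shGFP were 0.48 ± 0.11 in shNCOR cells (limma adjusted p = 0.00323) and 0.69 ± 0.11 in shSMRT cells (adjusted p = 1.05e-05). The Cp peak (2936 bp upstream of Cp, which encodes the copper-carrying ferroxidase ceruloplasmin) had 103, 112 and 160 normalised reads in shNCOR, 140, 143 and 130 in shSMRT and 193, 173 and 199 in shGFP libraries. It was lower in every knockdown library, by -0.60 ± 0.13 in shNCOR cells (adjusted p = 0.0015) and -0.44 ± 0.13 in shSMRT cells (adjusted p = 0.0139). The shSMRT call at Cp was lost (adjusted p up to 0.0753) without shSMRT replicate 3, shGFP replicate 1 or shGFP replicate 3, and under 2 of the 3 other scalings tried. The Mchr1 peak (18179 bp upstream) had 62.0, 65.8 and 43.9 normalised reads in shSMRT and 30.2, 21.6 and 31.4 in shGFP libraries, a difference of 0.92 ± 0.26 (adjusted p = 0.00832). That call was lost without shSMRT replicate 2 or shGFP replicate 2, at an adjusted p of up to 0.053. The Eef1a1 peak was lower in shSMRT cells (-0.67 ± 0.22, adjusted p = 0.0257), and that call was lost without shSMRT replicate 3 or any 1 shGFP library, with an adjusted p of up to 0.363, and under scaling to reads in peaks and TMM factors.

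The members lay mostly upstream of the gene they were assigned to. The rule favours this, because sites in promoters and inside genes are not annotated as intergenic. Of the 5658, 4453 (78.7%) were upstream and 1205 downstream of the TSS, at a median distance of 8901 bp and none nearer than 1001 bp. There were 1459 within 5 kb, 1713 between 5 and 10 kb and 2486 between 10 and 20 kb. They were narrow, with a median width of 336 bp, against 573 bp for promoter peaks and 338 bp for intergenic peaks beyond 20 kb. Their median level was 53.8 normalised reads, against 44.5 for the 7059 intergenic peaks beyond 20 kb, 50.1 for the 16293 intronic peaks and 161 for the 9213 promoter peaks. Together they held 9.04 to 9.21% of the reads in peaks in shNCOR, 9.32 to 9.51% in shSMRT and 9.13 to 9.25% in shGFP libraries. The 20 kb limit did not fall at a break in the values: the 212 peaks from 19 to 20 kb had a median of 52.8 normalised reads, and the 200 from 20 to 21 kb a median of 51.5.

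They named 4062 genes, of which 2901 had 1 member peak, 861 had 2, 208 had 3 and 92 had 4 or more. Cd276 and Gpr132 had the most, with 8 each, followed by Malat1 with 7. Of the genes, 4053 were in the RNA table and 2233 reached 1 RPKM in at least 3 libraries. Of the peaks, 5628 passed the filter of 10 normalised reads in at least 3 libraries, and 3205 of them had a tested gene. Peaks and genes were called changed at a limma adjusted p under 0.05, adjusted over all 51466 peaks or all 10789 genes tested.

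In shNCOR against shGFP cells, 280 member peaks rose and 232 fell. Of all peaks tested, 8.61% were called in this comparison, with 4.6% higher and 4.01% lower, and the member shares were 4.98% and 4.12%, so the members stood near the background. The groups did not overlap at 25.8% of member peaks and 25.9% of all peaks. Changes of at least 1 on the log2 scale were more often losses, with 35 member peaks higher and 80 lower. The same held over all peaks, with 420 higher and 856 lower. The peak list itself leaned this way. The deposited table listed 212 members as found in all 3 shGFP and no shNCOR libraries, and 8 the other way round. Sites open mainly in the shallower shNCOR libraries may thus be missing from the list, which limits what can be read from gains and losses. The part that depth has in this was not tested. The split of calls depended on how libraries were scaled: 54.7% of the called members were higher with the deposited scaling, 38.7% after scaling to reads in peaks, 44.1% after quantile normalisation and 44.2% with TMM factors. Counts also leaned on single control libraries: without shGFP replicate 2 there were 146 higher and 142 lower peaks, and without shGFP replicates 1 and 3 there were 139 and 123 lower ones. The calls named below kept their side under each of these scalings and without each library in turn unless stated.

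**Figure D1:**
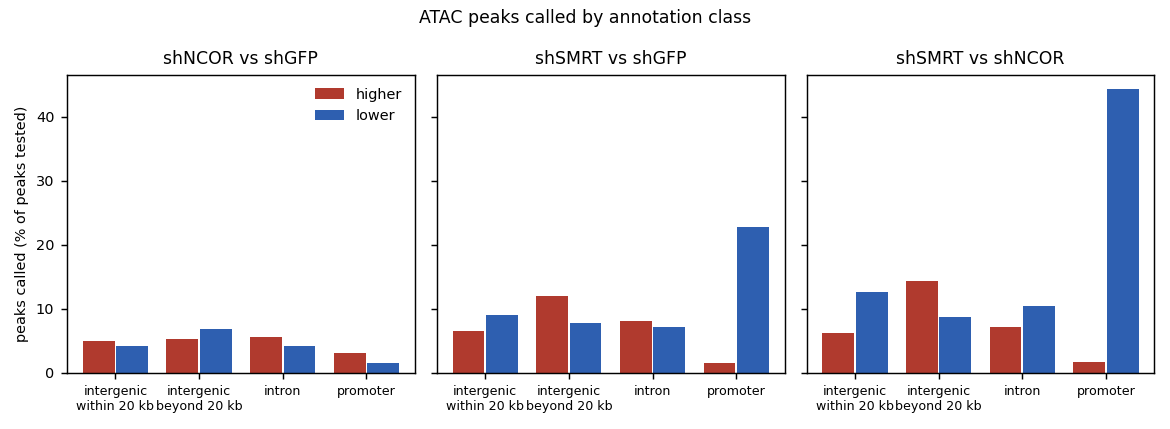
Percent of tested peaks called higher or lower (limma adjusted p under 0.05) in each comparison, for intergenic peaks within 20 kb of a start and for other annotation classes. In shSMRT against shGFP cells, 6.5% of the near intergenic peaks were higher and 9.01% lower, while promoter peaks were at 1.52% and 22.8%.

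The largest loss in shNCOR cells was 16960 bp downstream of the start of Rsad2, which encodes viperin, an interferon-induced antiviral enzyme. This peak (chr12:26439289-26439696) had 0, 1.65 and 12.7 normalised reads in shNCOR, 47.0, 27.2 and 17.0 in shSMRT and 43.6, 41.2 and 37.8 in shGFP libraries. All 3 shNCOR libraries lay below all others. The difference from shGFP was -2.45 ± 0.38 in shNCOR cells (adjusted p = 8.77e-06) and -0.46 ± 0.38 in shSMRT cells (adjusted p = 0.434). Rsad2 transcripts were at 0.054, 0.162 and 0.195 RPKM in shNCOR, 0.455, 0.868 and 0.782 in shSMRT and 1.35, 1.68 and 1.14 in shGFP libraries. The gene reached 1 RPKM only in the shGFP libraries, so its RNA is given as values without a test. In bulk libraries, fewer cells with a signal and less signal per cell cannot be told apart.

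Several other sites had few reads left in shNCOR cells. The peak 3618 bp upstream of Atp1b1, the beta subunit of the sodium pump, had 10.6, 16.5 and 27.9 normalised reads in shNCOR, 35.7, 25.0 and 58.0 in shSMRT and 89.5, 79.7 and 89.5 in shGFP libraries. Both knockdowns lay below the control, by -2.03 ± 0.27 in shNCOR cells (adjusted p = 3.24e-07) and -1.10 ± 0.27 in shSMRT cells (adjusted p = 0.0028). The peak 7067 bp upstream of Spred1, an inhibitor of RAS signalling, had 15.8, 9.90 and 29.2 normalised reads in shNCOR, 25.4, 31.8 and 28.3 in shSMRT and 88.3, 80.6 and 81.2 in shGFP libraries. It differed from shGFP by -2.01 in shNCOR and -1.40 in shSMRT cells. Spred1 RNA differed by -0.10 (adjusted p = 0.0108) in shNCOR and 0.09 (adjusted p = 0.00929) in shSMRT cells. The peak 10442 bp upstream of Kif12, a kinesin, had 39.6, 14.8 and 10.2 normalised reads in shNCOR, 70.4, 81.7 and 65.1 in shSMRT and 91.7, 85.3 and 92.2 in shGFP libraries, and its shNCOR difference from shGFP was -1.99 ± 0.25 (adjusted p = 6.77e-08).

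The peak 9190 bp upstream of Prkcd, which encodes protein kinase C delta, fell by 1.95 on the log2 scale in shNCOR cells (adjusted p = 3.28e-05), and its RNA difference was 0.01 ± 0.04 (adjusted p = 0.858). Fabp4, a fatty acid-binding protein of adipocytes and macrophages, had a peak 4869 bp upstream with 10.6, 11.6 and 22.8 normalised reads in shNCOR, 43.2, 60.1 and 48.1 in shSMRT and 51.4, 37.5 and 46.1 in shGFP libraries. Only the shNCOR libraries were low (-1.37 ± 0.28, adjusted p = 0.000616). Fabp4 RNA was at 0.845, 0.302 and 0.976 RPKM in shNCOR, 0.871, 1.29 and 0.588 in shSMRT and 2.57, 2.23 and 2.30 in shGFP libraries, and passed the RNA filter only through the shGFP libraries.

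Gains in shNCOR cells were smaller. The peak 8391 bp upstream of Ifngas1, a long noncoding RNA beside the interferon gamma gene, had 84.5, 72.6 and 71.0 normalised reads in shNCOR, 47.9, 54.5 and 77.8 in shSMRT and 20.1, 24.4 and 26.7 in shGFP libraries. Both knockdowns were above the control, by 1.50 ± 0.22 in shNCOR cells (adjusted p = 4.3e-06) and 1.16 ± 0.22 in shSMRT cells (adjusted p = 0.00018). Ifngas1 RNA was listed at 0 in all 9 libraries. Clec4d, a C-type lectin receptor of myeloid cells, had a peak 1688 bp upstream with 58.1, 49.5 and 69.8 normalised reads in shNCOR, 51.6, 59.0 and 48.1 in shSMRT and 21.2, 20.6 and 24.0 in shGFP libraries. Again neither knockdown overlapped the control (1.24 and 1.10). Clec4d RNA differed from shGFP by -0.06 ± 0.06 in shNCOR cells (adjusted p = 0.408) and rose by 0.50 ± 0.06 in shSMRT cells (adjusted p = 1.86e-05).

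Several genes with large RNA differences in shNCOR cells had peaks that differed by less than 1 on the log2 scale. Fcgr1, the high-affinity IgG receptor, was at 0.339, 0.438 and 0.471 RPKM in shNCOR, 9.52, 8.73 and 9.20 in shSMRT and 17.4, 17.4 and 17.6 in shGFP libraries. Its peak 6984 bp upstream had 100, 127 and 136 normalised reads in shNCOR, 172, 191 and 187 in shSMRT and 220, 213 and 224 in shGFP libraries. RNA and peak followed the same order of groups, with shNCOR differences of -3.71 ± 0.05 for the RNA (adjusted p = 6.89e-12) and -0.84 ± 0.12 for the peak (adjusted p = 9.86e-07). A second peak 8905 bp upstream was not called (-0.21, adjusted p = 0.623). Rcsd1, a regulator of actin capping, fell in RNA by 2.37 in shNCOR cells and in its peak 9844 bp upstream by 0.99 (adjusted p = 0.00211). The peak 13503 bp upstream of Cd300e, an activating receptor of monocytes, fell by 0.90 (adjusted p = 0.00211), and the one 5066 bp upstream of Ambp, a plasma protease inhibitor precursor, by 0.99 (adjusted p = 0.00204). RNA of both genes reached 1 RPKM only in shGFP libraries. Cd300e was at 0.115, 0.07 and 0.156 RPKM in shNCOR and 2.66, 2.87 and 2.69 in shGFP libraries, and Ambp at 0.292, 0.144 and 0.242 RPKM in shNCOR and 3.42, 2.54 and 2.96 in shGFP libraries. Gas6, the ligand of the TAM receptors that clear apoptotic cells, rose by 1.40 in RNA and by 0.69 in its peak 9722 bp upstream (adjusted p = 0.0013).

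**Figure D2:**
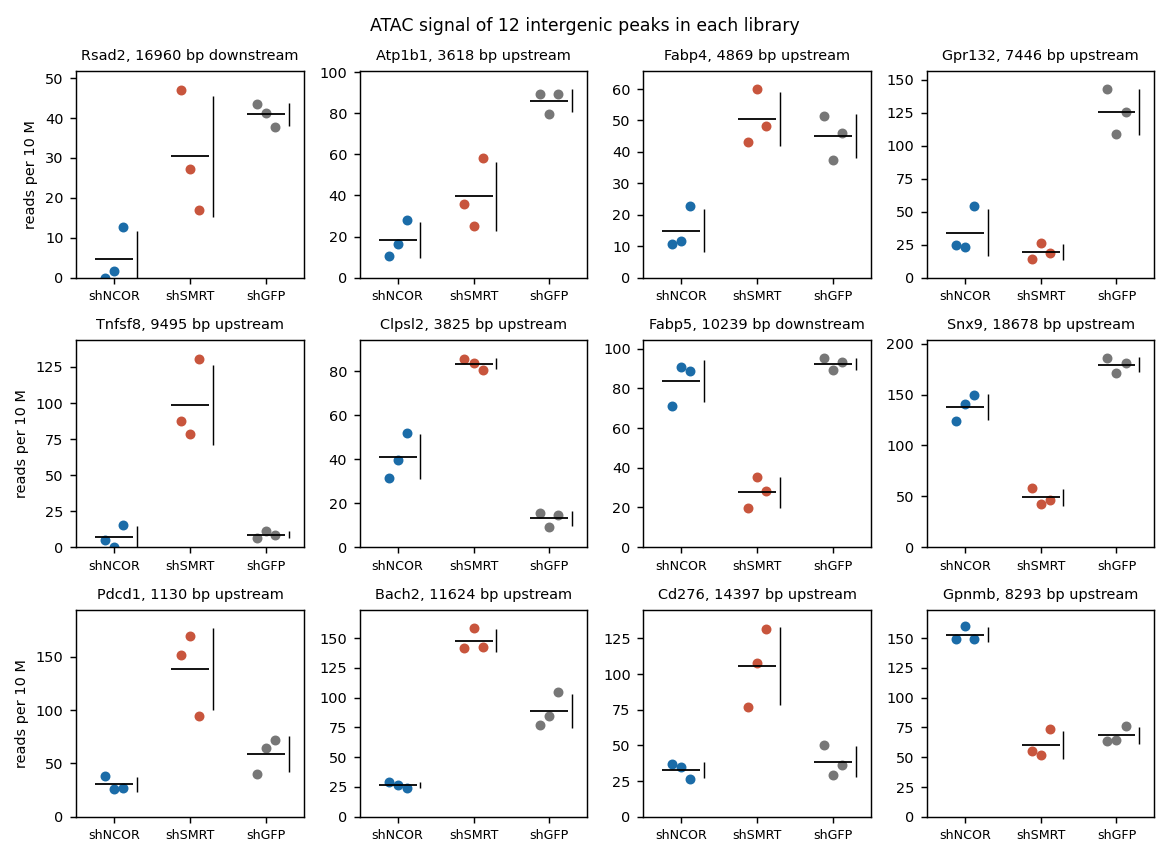
Normalised reads (per 10 M library reads, y axis) of 12 intergenic peaks in every library, by group, with each panel named by the gene and its distance. Dots are libraries, the line is the mean and the vertical bar the SD (3 libraries a group). The Rsad2 peak is lowest in all 3 shNCOR libraries, and the Tnfsf8 peak reaches 78.3 to 130 in shSMRT libraries alone.

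In shSMRT against shGFP cells, 366 member peaks rose and 507 fell (6.5% and 9.01% of those tested). Of all peaks, 17.7% were called, 6.81% higher and 10.9% lower. The groups did not overlap at 32.0% of members and 35.2% of all peaks. Among promoter peaks, 1.52% rose and 22.8% fell, and among intergenic peaks beyond 20 kb, 12.0% rose and 7.73% fell, so the near intergenic peaks stood between these classes. That order was not tested. Of changes of at least 1 on the log2 scale, 149 were gains and 70 losses, and over all peaks 1627 were gains and 497 losses. Here too the split followed the scaling: 41.9% of called members were higher with the deposited scaling, 63.8% after scaling to reads in peaks, 57.3% after quantile normalisation and 58.3% with TMM factors. The number of lower peaks was 278 without shGFP replicate 1 and 295 without shGFP replicate 3.

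The peak listed with the largest gain lay 9495 bp upstream of Tnfsf8, which encodes CD30 ligand. This peak (chr4:63870475-63871084) had 87.3, 78.3 and 130 normalised reads in shSMRT libraries, 5.28, 0 and 15.2 in shNCOR libraries and 6.71, 11.2 and 8.30 in shGFP libraries. All 3 shSMRT libraries lay above all others. The peak reached the minimum of 10 in all 3 shSMRT libraries, in 1 shNCOR and in 1 shGFP library, so it passed the filter only with its shSMRT libraries, and its values are given without a test. Tnfsf8 RNA was under the filter, at 0.489, 0.499 and 0.380 RPKM in shSMRT, 0.018, 0 and 0.046 in shNCOR and 0 in all 3 shGFP libraries.

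Other large gains are given with their shNCOR values. The peak 3825 bp upstream of Clpsl2, a colipase-like gene, had 85.4, 83.9 and 80.7 normalised reads in shSMRT, 31.7, 39.6 and 52.0 in shNCOR and 15.7, 9.37 and 14.8 in shGFP libraries. The 3 groups did not overlap, and the differences from shGFP were 2.29 in shSMRT and 1.33 in shNCOR cells. Clpsl2 RNA was listed at 0 in all 9 libraries. The peak 14314 bp upstream of Lbh, a developmental transcription cofactor, had 130, 99.8 and 123 normalised reads in shSMRT, 42.2, 59.4 and 27.9 in shNCOR and 15.7, 20.6 and 31.4 in shGFP libraries. It rose by 2.19 ± 0.24 in shSMRT cells (adjusted p = 1.69e-09), while Lbh RNA stayed under 1 RPKM, at 0.856, 0.785 and 0.680 RPKM in shSMRT and 0.143, 0.142 and 0.133 RPKM in shGFP libraries. Peaks near Chn1, a RAC GTPase-activating protein, near F7, coagulation factor VII, and near Thg1l, a tRNA guanylyltransferase, rose by 2.38, 2.12 and 2.06.

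The strongest loss was at Gpr132, a G protein-coupled receptor of myeloid cells. The peak 7446 bp upstream (chr12:112868232-112868493) had 14.1, 26.1 and 18.4 normalised reads in shSMRT, 25.1, 23.1 and 54.5 in shNCOR and 143, 109 and 125 in shGFP libraries. Both knockdowns lay well below the control, by -2.44 ± 0.25 in shSMRT cells (adjusted p = 5.09e-10) and -1.82 ± 0.25 in shNCOR cells (adjusted p = 9.99e-07). Of the other 7 member peaks of Gpr132, none was called in shSMRT cells. One of them, 5800 bp upstream, was called lower in shNCOR cells (-0.51, adjusted p = 0.00854), a call lost at an adjusted p of up to 0.0722 without shNCOR replicate 3, shGFP replicate 1 or shGFP replicate 3. Gpr132 RNA was at 1.06, 1.02 and 1.12 RPKM in shSMRT, 0.335, 0.381 and 0.448 in shNCOR and 2.52, 2.54 and 2.36 in shGFP libraries.

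Losses seen with the SMRT hairpin and not called with the NCOR hairpin included Snx9, Fabp5 and Hexim2. Snx9 encodes a sorting nexin of endocytosis, and its peak 18678 bp upstream had 58.2, 42.0 and 46.7 normalised reads in shSMRT, 124, 140 and 150 in shNCOR and 186, 172 and 181 in shGFP libraries. It differed from shGFP by -1.78 ± 0.14 in shSMRT cells (adjusted p = 2.37e-13) and by -1.41 ± 0.14 between shSMRT and shNCOR cells (adjusted p = 2.23e-10). Snx9 RNA fell by 0.48 in shSMRT cells. Fabp5, an epidermal-type fatty acid-binding protein also made by macrophages, had a peak 10239 bp downstream of its start with 19.7, 35.2 and 28.3 normalised reads in shSMRT, 71.3, 90.8 and 88.8 in shNCOR and 95, 89.1 and 93.1 in shGFP libraries. Its RNA was 38.7, 36.1 and 38.3 RPKM in shSMRT, 83.2, 74.6 and 75.8 in shNCOR and 76.6, 73.4 and 70.8 in shGFP libraries. Peak and RNA were both low in shSMRT libraries only, with differences from shGFP of -1.60 ± 0.20 and -0.95 ± 0.05. The Hexim2 peak (-1.95) and RNA (-0.64) also fell; Hexim2 inhibits the transcription elongation factor P-TEFb. Scd1, stearoyl-CoA desaturase, had a strong peak 19042 bp downstream of its start with 246, 237 and 222 normalised reads in shSMRT, 463, 434 and 464 in shNCOR and 416, 375 and 366 in shGFP libraries. It was lower only in shSMRT cells (-0.70 ± 0.09, adjusted p = 5.71e-08), and Scd1 RNA fell by 1.60 there.

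Several genes with large RNA gains in shSMRT cells had peaks with gains of under 1 on the log2 scale, while the peaks of Pdcd1, described further on, gained more. Mmp12, macrophage elastase, was at 10.2, 9.91 and 10.6 RPKM in shSMRT, 2.55, 2.74 and 2.28 in shNCOR and 0.051, 0.057 and 0.028 in shGFP libraries. Its peak 7276 bp upstream had 98.6, 91.9 and 90.5 normalised reads in shSMRT, 66.0, 82.5 and 69.8 in shNCOR and 53.7, 47.8 and 59.0 in shGFP libraries. It rose by 0.76 ± 0.18 in shSMRT cells (adjusted p = 0.00157) and its shNCOR difference was 0.41 (adjusted p = 0.143). Ccl2, the monocyte-attracting chemokine, was at 83.1, 84.4 and 72.3 RPKM in shSMRT, 16.6, 15.3 and 15.2 in shNCOR and 6.06, 6.89 and 7.13 in shGFP libraries. Its peak 11678 bp upstream rose by 0.83 ± 0.20 in shSMRT cells (adjusted p = 0.00285). A peak 12770 bp upstream rose by 0.61 (adjusted p = 0.00636, and 0.0514 without shSMRT replicate 2), and the one 18953 bp upstream was not called (0.39, adjusted p = 0.213). Src, the tyrosine kinase needed for osteoclast resorption, was at 5.86, 6.01 and 5.70 RPKM in shSMRT, 1.33, 1.16 and 0.98 in shNCOR and 0.366, 0.511 and 0.37 in shGFP libraries, and passed the RNA filter only with its shSMRT libraries. Its peak 16560 bp upstream rose by 0.97 ± 0.25 in shSMRT cells (adjusted p = 0.00488), and the one 6859 bp upstream was not called (-0.09). Lyz1, a lysozyme, rose by 2.86 in RNA, and its 3 member peaks had differences of 0.13, 0.29 and 0.21 that did not pass the test. Csf1, the macrophage growth factor, reached 1 RPKM only in shSMRT libraries, at 6.00, 5.06 and 5.09 RPKM, against 0.283, 0.104 and 0.275 RPKM in shGFP libraries, and none of its 3 member peaks was called against shGFP.

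In shSMRT against shNCOR cells, 349 member peaks were higher and 711 lower (6.2% and 12.6%). Of all peaks, 24.4% were called, 6.92% higher and 17.5% lower. The groups did not overlap at 30.5% of members and 35.7% of all peaks. The higher share of called members was 32.9% with the deposited scaling, 69.8% after scaling to reads in peaks, 57.3% after quantile normalisation and 58.1% with TMM factors. Scaling to reads in peaks moved the median of all peaks by more than 0.1, with a log2 difference of 0.039 against -0.119 with the deposited scaling. No member peak called with the deposited scaling was called in the opposite direction under another one, in any of the 3 comparisons.

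**Figure D3:**
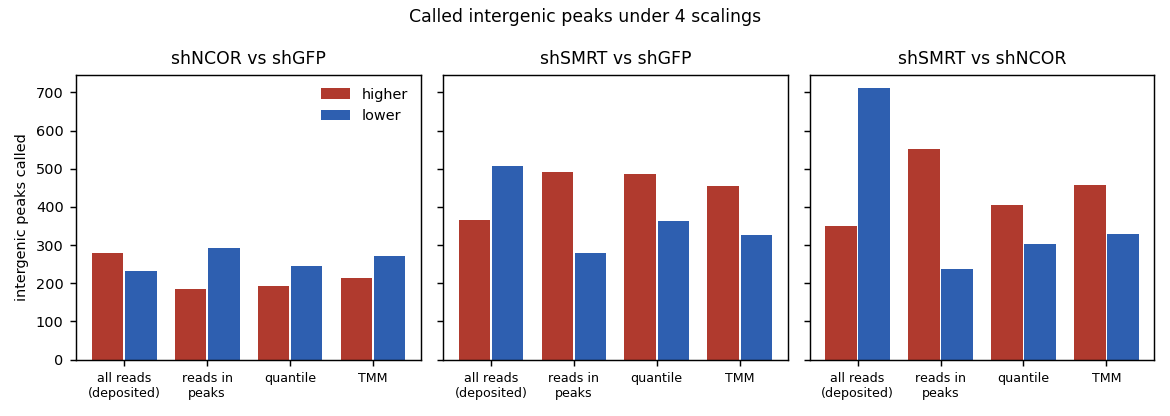
Number of near intergenic peaks called higher or lower in each comparison under the deposited scaling, scaling to reads in peaks, quantile normalisation and TMM factors. In shSMRT against shNCOR cells the counts are 349 higher and 711 lower as deposited, and 551 higher and 238 lower after scaling to reads in peaks.

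A few sites were called in opposite directions in the 2 knockdowns, and those described here were chosen after their values were seen. Of the member peaks, 7 were higher in shSMRT and lower in shNCOR cells, and 7 went the other way. In both knockdowns 99 were called higher and 77 lower than in shGFP cells, whose libraries the 2 comparisons share. Over all peaks tested, 4.6% rose and 4.01% fell in shNCOR cells, and 6.81% rose and 10.9% fell in shSMRT cells. The matching joint counts over all peaks are not given, and whether members differ from other peaks in them was not tested. The peaks at Pdcd1, Neu4 and Bach2 were higher in shSMRT and lower in shNCOR cells, and others, such as those of Uqcc2 and Ldha, went the other way. Pdcd1 encodes PD-1, an inhibitory receptor of activated lymphocytes that macrophages can also carry. Its peak 1130 bp upstream (chr1:94053477-94053889) had 151, 169 and 94.8 normalised reads in shSMRT, 38.3, 26.4 and 26.6 in shNCOR and 40.2, 64.7 and 71.9 in shGFP libraries. The peak 3627 bp upstream had 100, 112 and 109 in shSMRT, 11.9, 36.3 and 16.5 in shNCOR and 36.9, 48.8 and 29.5 in shGFP libraries. At both, the shSMRT libraries were above all others. The shSMRT differences from shGFP were 1.16 ± 0.21 (adjusted p = 7.67e-05) and 1.39 ± 0.25 (adjusted p = 7.58e-05), and those from shNCOR were 1.99 ± 0.21 (adjusted p = 8.25e-10) and 2.19 ± 0.25 (adjusted p = 8.84e-09).

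The shNCOR differences from shGFP at Pdcd1 were -0.83 ± 0.21 (adjusted p = 0.00749) and -0.79 ± 0.25 (adjusted p = 0.04). The nearer of these calls was lost without shGFP replicate 2 or 3, at an adjusted p of up to 0.0853. The farther call held without only 2 of the 9 libraries, shNCOR replicate 2 and shGFP replicate 3, and its adjusted p reached 0.237. Pdcd1 RNA was at 6.20, 5.57 and 5.92 RPKM in shSMRT, 0.021, 0.047 and 0.026 in shNCOR and 0.276, 0.505 and 0.345 in shGFP libraries, in the same order of groups as the peaks. The gene reached 1 RPKM only in the shSMRT libraries, so its RNA is given as values without a test. A stronger peak assigned to Neu4, a sialidase gene, had its middle 17241 bp from the Pdcd1 start (chr1:94034932-94035692). It had 395, 447 and 420 normalised reads in shSMRT, 222, 178 and 172 in shNCOR and 283, 250 and 244 in shGFP libraries, differing from shGFP by 0.69 ± 0.10 in shSMRT cells (adjusted p = 1.12e-06) and -0.44 ± 0.10 in shNCOR cells (adjusted p = 0.00245). The groups did not overlap there.

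Bach2, a transcriptional repressor best known in lymphocytes, had a peak 11624 bp upstream (chr4:32405330-32406292) with 142, 159 and 143 normalised reads in shSMRT, 29.0, 26.4 and 24.1 in shNCOR and 77.2, 84.4 and 105 in shGFP libraries. The 3 groups were separate, with differences from shGFP of 0.71 ± 0.18 in shSMRT cells (adjusted p = 0.00313) and -1.57 ± 0.18 in shNCOR cells (adjusted p = 6.27e-09). Bach2 RNA was at most 0.003 RPKM in any library.

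In the other direction, the peak 8311 bp upstream of Uqcc2, an assembly factor of respiratory complex III, had 143, 148 and 163 normalised reads in shSMRT, 271, 262 and 268 in shNCOR and 208, 201 and 195 in shGFP libraries. Its differences from shGFP were -0.40 ± 0.10 in shSMRT cells (adjusted p = 0.00493) and 0.40 ± 0.10 in shNCOR cells (adjusted p = 0.00939). The shSMRT call was lost under quantile normalisation, and the shNCOR call without shGFP replicate 3 (adjusted p = 0.0579). The peak 6532 bp upstream of Ldha, lactate dehydrogenase A, had 244, 221 and 297 normalised reads in shSMRT, 414, 403 and 434 in shNCOR and 323, 329 and 337 in shGFP libraries. It differed from shGFP by -0.38 ± 0.09 in shSMRT cells (adjusted p = 0.00319) and 0.33 ± 0.09 in shNCOR cells (adjusted p = 0.0165). Both calls were lost under quantile normalisation, and the shNCOR call without shNCOR replicate 3 or any 1 shGFP library (adjusted p up to 0.0712). The Neu4 and Bach2 calls against shGFP held under all 3 other scalings and without each library in turn.

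Cd276 encodes B7-H3, a checkpoint protein of the B7 family. Its peak 14397 bp upstream (chr9:58554985-58555690) had 77.0, 108 and 132 normalised reads in shSMRT, 37.0, 34.7 and 26.6 in shNCOR and 50.3, 29.1 and 36.0 in shGFP libraries. Only the shSMRT libraries stood apart, by 1.34 ± 0.23 against shGFP (adjusted p = 2.03e-05). The other 7 member peaks of Cd276 were not called against shGFP in either knockdown, so the called peak is the one that covers the upstream RefSeq start printed above. Cd276 RNA was at 42.1, 44.3 and 43.6 RPKM in shSMRT, 10.3, 9.38 and 9.73 in shNCOR and 17.0, 18.6 and 16.4 in shGFP libraries, which gives differences from shGFP of 1.27 ± 0.05 in shSMRT and -0.76 ± 0.05 in shNCOR cells.

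Where several member peaks of a gene were called, they mostly moved the same way. In shNCOR against shGFP cells, 36 of 37 genes with at least 2 called peaks had all of them in 1 direction. The counts were 68 of 72 in shSMRT against shGFP cells and 101 of 110 in shSMRT against shNCOR cells. Peaks of 1 gene share a locus and are not independent. Called members as a whole also leaned to 1 side in the last comparison, with 349 higher and 711 lower. The agreement that this split alone would give was not worked out. The same counts over peaks of every class are not given, so the agreement is not read as particular to the members.

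At Gpnmb, a glycoprotein of phagocytes and osteoclasts, 3 of 4 member peaks rose in shNCOR cells. The peak 8293 bp upstream had 149, 160 and 150 normalised reads in shNCOR, 55.4, 52.2 and 73.6 in shSMRT and 63.7, 64.7 and 76.5 in shGFP libraries. The shNCOR libraries were about as far above the control at 5053 bp and 3514 bp, and the 3 differences were 1.11 ± 0.16 (adjusted p = 2.35e-06), 1.14 ± 0.18 (adjusted p = 1.61e-05) and 0.90 ± 0.18 (adjusted p = 0.000356). None of the 4 was called in shSMRT cells. Gpnmb RNA was at 519, 517 and 519 RPKM in shNCOR, 361, 372 and 366 in shSMRT and 237, 241 and 241 in shGFP libraries. The shNCOR libraries were highest and the shGFP libraries lowest, with a shNCOR difference of 1.11 ± 0.02 (adjusted p = 9.28e-11).

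At Plxnd1, a semaphorin receptor, 3 of 6 member peaks fell in shSMRT cells. The peak 9136 bp upstream had 40.4, 18.1 and 28.3 normalised reads in shSMRT, 70.0, 75.9 and 67.2 in shNCOR and 87.2, 78.8 and 83.9 in shGFP libraries. Its difference was -1.43 ± 0.21 (adjusted p = 2.18e-06), beside -1.40 ± 0.23 at 8690 bp and -1.04 ± 0.14 at 14623 bp. Plxnd1 RNA was at 12.5, 11.8 and 13.1 RPKM in shSMRT, 25.7, 26.5 and 25.6 in shNCOR and 19.3, 20.3 and 19.7 in shGFP libraries. The 3 groups did not overlap, and the shSMRT difference from shGFP was -0.63 ± 0.04 (adjusted p = 4.09e-07).

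At Ctso, a cysteine cathepsin, all 3 member peaks were higher in shSMRT than in shNCOR cells, by 1.04, 1.51 and 1.84. The farthest of them, 16433 bp upstream, had 80.8, 83.9 and 90.5 normalised reads in shSMRT, 35.6, 41.3 and 39.3 in shNCOR and 42.5, 36.6 and 38.7 in shGFP libraries. Ctso RNA was at 6.83, 6.54 and 7.00 RPKM in shSMRT and 5.12, 5.59 and 4.99 RPKM in shNCOR libraries (0.32 ± 0.06, adjusted p = 0.000538). Malat1, an abundant nuclear noncoding RNA, had 4 of 7 member peaks called higher in shNCOR cells by 0.33 to 0.61. Only the one 13408 bp upstream kept the call without each library in turn and under each scaling; it had 177, 201 and 165 normalised reads in shNCOR, 100, 108 and 102 in shSMRT and 123, 113 and 112 in shGFP libraries. For the other 3, the adjusted p reached 0.0546 without shGFP replicate 2 (12512 bp), 0.061 without shGFP replicate 3 (9536 bp), and 0.215 without one of 4 libraries, shNCOR replicates 1 and 3 and shGFP replicates 1 and 3 (19629 bp).

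**Figure D4:**
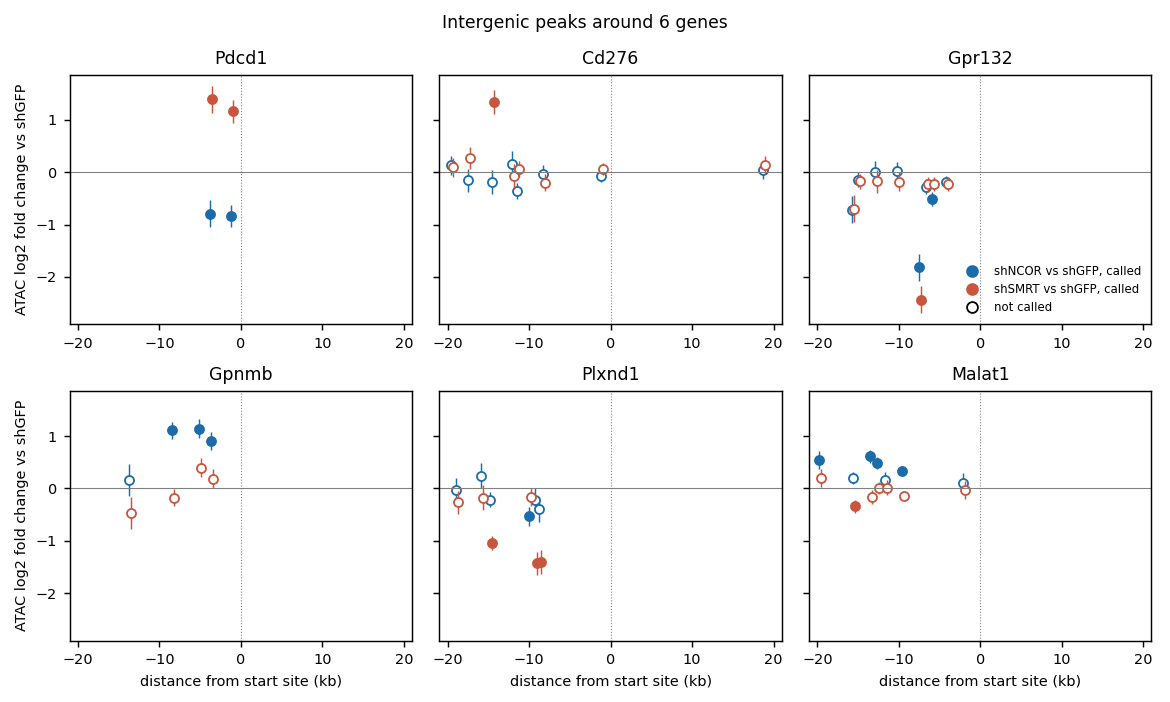
Log2(value + 5) difference from shGFP with its SE (y axis) for each near intergenic peak of 6 genes, against its distance from the start (x axis, kb, negative upstream), in shNCOR and shSMRT cells. Filled points are called. At Gpnmb 3 of 4 peaks are higher in shNCOR cells, and at Plxnd1 3 of 6 are lower in shSMRT cells.

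Genes were also read by role. The lists were chosen with earlier results of these data known. Over all peaks tested, 4.6% rose and 4.01% fell in shNCOR cells, and 6.81% rose and 10.9% fell in shSMRT cells. Over all genes tested, 17.6% rose and 20.0% fell in shNCOR cells, and 24.4% rose and 31.4% fell in shSMRT cells. Of 40 interferon-stimulated genes, 8 had 15 member peaks between them. In shNCOR cells none of the 15 rose and 2 fell, those of Rsad2 and of the antiviral oligoadenylate synthetase-like gene Oasl1 (-0.52 ± 0.13, adjusted p = 0.00843, and 0.0872 without shGFP replicate 2), with a median of -0.27 against 0.05 over all peaks. All 6 of their genes that passed the RNA filter were called lower in RNA in shNCOR cells, where 20.0% of all genes were lower. Rsad2 passed that filter only through its shGFP libraries, where it was high, so its own call adds nothing to that count. In shSMRT cells none of the 15 rose and 3 fell, with a median of -0.26 against -0.09 over all peaks, and 2 of the 6 genes rose and 3 fell. The fallen peaks were those of Oasl1, Ly6e (-0.65) and Slfn2 (-0.34). The Oasl1 call in shSMRT cells was lost under quantile normalisation and without shGFP replicate 2, and the Slfn2 call under all 3 other scalings and without any 1 shSMRT or shGFP library (adjusted p up to 0.177).

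Of 39 genes of the NF-kB and AP-1 inflammatory programme, 27 had 67 member peaks. In shNCOR cells 8 peaks rose and none fell (all peaks: 4.6% and 4.01%). Of the 23 tested genes, 8 rose and 10 fell there (all genes: 17.6% and 20.0%). In shSMRT cells 4 peaks rose and 8 fell (all peaks: 6.81% and 10.9%), while 17 of the 23 genes rose and 3 fell (all genes: 24.4% and 31.4%). These peak counts turned with the scaling: after scaling to reads in peaks they were 3 and 2 in shNCOR cells and 10 and 3 in shSMRT cells, and without shGFP replicate 3 the shNCOR count was 1 and 0. The feedback inhibitor Socs3 had 4 of 5 member peaks lower in shSMRT cells, and those 11000 bp and 15097 bp downstream of its start kept that call under all scalings. The second of them had 198, 202 and 198 normalised reads in shSMRT, 263, 261 and 241 in shNCOR and 316, 271 and 334 in shGFP libraries (-0.61 ± 0.10, adjusted p = 1.23e-05). Socs3 RNA fell by 0.33 in shSMRT cells.

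The remaining lists held few called peaks, and the shares over all peaks and genes given above are the background for them too. Of 44 peaks at 27 macrophage identity genes, 2 rose and 3 fell in each knockdown, and after scaling to reads in peaks 1 rose and 3 fell in shNCOR and 5 rose and 3 fell in shSMRT cells. Of 29 peaks at 16 lysosomal genes, 3 rose and none fell in shNCOR cells, and 1 rose and 2 fell in shSMRT cells, which became 2 and 0 after scaling to reads in peaks. In RNA, 10 of the 16 genes rose and 2 fell in shNCOR cells (all genes: 17.6% and 20.0%). In shSMRT cells 12 of the 16 genes rose and 3 fell (all genes: 24.4% and 31.4%). Among them, the peak 6201 bp upstream of Atp6v0a1, a subunit of the lysosomal proton pump, had 104, 112 and 104 normalised reads in shNCOR, 96.7, 111 and 113 in shSMRT and 71.6, 55.3 and 75.6 in shGFP libraries, and rose by 0.64 in each knockdown. Its RNA rose by 1.29 in shSMRT cells and differed by 0.09 (adjusted p = 0.207) in shNCOR cells. The shNCOR call at this peak was lost without shGFP replicate 2.

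Of 14 peaks at PPAR target genes, 1 rose and 1 fell in shNCOR cells, and 2 rose and 1 fell in shSMRT cells. Besides Fabp4 and Fabp5, the peak 7873 bp downstream of the start of Ucp2, a mitochondrial carrier, rose by 0.71 ± 0.13 in shNCOR (adjusted p = 0.000263) and 0.61 ± 0.13 in shSMRT cells (adjusted p = 0.00087). Of 12 peaks at LXR target genes none was called in shNCOR cells, while those of Scd1 and Scd2 fell in shSMRT cells. The Scd2 call was lost under quantile normalisation and without shSMRT replicate 2 or shGFP replicate 1 (adjusted p up to 0.0661). Of 5 peaks at cholesterol synthesis genes, 2 fell in shSMRT cells, those of Insig1 and Sc5d, and none was called in shNCOR cells. The Insig1 call was lost without shSMRT replicate 1 or shGFP replicate 1 (adjusted p up to 0.0822), and the Sc5d call after scaling to reads in peaks and without shSMRT replicate 1 or 3 or shGFP replicate 1 or 2 (adjusted p up to 0.124). Of 18 peaks at osteoclast genes, 1 rose and none fell in shNCOR cells. In shSMRT cells 1 rose and 1 fell, which became 2 and 0 after scaling to reads in peaks. In RNA, 8 of 11 of their genes rose and 1 fell in shNCOR cells (all genes: 17.6% and 20.0%). In shSMRT cells 9 of the 11 rose and 1 fell (all genes: 24.4% and 31.4%). The integrin subunit gene Itgav was among 16 peaks of chemokine receptors and integrins, of which 2 rose in shSMRT cells. Its peak 9446 bp upstream had 89.2, 88.5 and 100 normalised reads in shSMRT, 71.3, 56.1 and 88.8 in shNCOR and 51.4, 58.1 and 50.7 in shGFP libraries (0.74 ± 0.18 against shGFP, adjusted p = 0.00271), and its RNA rose by 1.57. Of 17 peaks at matrix and protease genes, 1 rose and 1 fell in shNCOR cells (0 and 2 after scaling to reads in peaks) and 2 rose and 3 fell in shSMRT cells (3 and 2). Of 12 peaks at proliferation genes, none rose and 1 fell in shNCOR and 3 fell in shSMRT cells. Of 9 peaks at retinoid and nuclear receptor genes, 1 rose in shNCOR cells, that of the circadian repressor Nr1d1, and of 6 peaks at genes of the corepressor complex, 2 rose in shNCOR cells and 1 rose and 1 fell in shSMRT cells (1 and 0 in each after scaling to reads in peaks).

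The RNA of the genes named by member peaks was compared with the peaks over all pairs. Of 2233 such genes, 505 rose and 560 fell in shNCOR against shGFP cells (22.6% and 25.1%), where 37.6% of all genes were called, 17.6% higher and 20.0% lower. In shSMRT against shGFP cells 766 rose and 633 fell (34.3% and 28.3%), where 55.8% of all genes were called, 24.4% higher and 31.4% lower. In shSMRT against shNCOR cells 751 were higher and 556 lower, where 51.8% of all genes were called, 22.8% higher and 29.0% lower. RNA levels of the groups did not overlap at 57.6%, 69.2% and 65.7% of these genes in the 3 comparisons, and at 48.1%, 63.1% and 58.9% of all genes.

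Called peaks and their nearest genes were read together, beside the same shares over all peaks with a tested gene. In shNCOR against shGFP cells, the gene rose at 52.3% and fell at 7.39% of the 176 pairs whose peak rose, and it fell at 52.8% and rose at 9.43% of the 106 pairs whose peak fell. Over all 3205 pairs the gene rose at 23.7% and fell at 26.1%. Among peaks of every class, the gene rose at 47.0% of 1671 pairs with a risen peak and fell at 50.0% of 1070 pairs with a fallen peak. In shSMRT against shGFP cells, the gene rose at 56.0% and fell at 14.5% of 166 pairs with a risen peak. It fell at 41.6% and rose at 26.1% of 341 pairs with a fallen peak, against 38.2% rising and 27.3% falling over all pairs. Among peaks of every class, the gene rose at 52.7% of 1829 pairs with a risen peak and fell at 40.6% of 4374 pairs with a fallen peak. The shares at the near intergenic peaks thus stood near those of all peaks. In shSMRT against shNCOR cells, the gene was higher at 60.6% and lower at 7.58% of 132 pairs with a higher peak, and lower at 35.3% and higher at 26.1% of 502 pairs with a lower peak. Over all 3205 pairs it was higher at 36.8% and lower at 23.7%. Among peaks of every class, it was higher at 52.0% and lower at 14.1% of 1485 pairs with a higher peak, and lower at 34.8% and higher at 21.0% of 7464 pairs with a lower peak.

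Across the 3205 pairs, the peak's and the gene's log2 differences had a Pearson correlation of 0.270 in shNCOR against shGFP cells, 0.237 in shSMRT against shGFP cells and 0.253 in shSMRT against shNCOR cells. Over the 34254 pairs of peaks of every class, the coefficients were close to these, at 0.2594, 0.2215 and 0.2326 in that order. These are descriptions across sites, which share libraries and, for 2 or more peaks of a gene, the RNA value. Of called peaks, 148 of 282 (52.5%), 235 of 507 (46.4%) and 257 of 634 (40.5%) had a gene called the same way in these 3 comparisons, in that order, and 8.16%, 22.3% and 22.2% a gene called the opposite way. After scaling to reads in peaks, the same-way shares in the last 2 comparisons were 53.28% and 52.97%. The 2 comparisons with shGFP share its libraries.

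**Figure D5:**
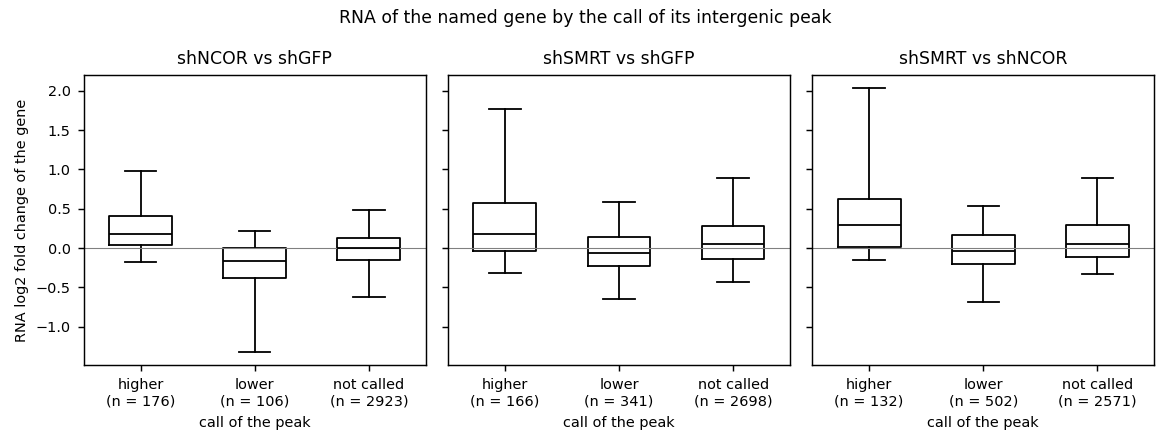
Log2(RPKM + 1) difference of the nearest gene (y axis) by the call of its near intergenic peak (x axis), in each comparison. Boxes are quartiles with the median line, and whiskers run from the 5th to the 95th percentile over peak and gene pairs. In shNCOR against shGFP cells the 176 pairs with a risen peak have a median of 0.18 and the 106 with a fallen peak a median of -0.16.

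Most member peaks of genes with large RNA changes were not called, and peaks of other classes at these genes are left out of these counts. Some of these genes, such as Rsad2 and Pdcd1, passed the RNA filter only through the group where they were high. In shNCOR cells, 29 genes rose by at least 1 on the log2 scale, and of their 49 member peaks 9 rose and 1 fell. Another 37 genes fell by as much, and of their 64 member peaks 13 fell and none rose. Over all genes tested, 52 rose and 113 fell by as much in shNCOR cells, and over all peaks 4.6% rose and 4.01% fell. In shSMRT cells, 71 genes rose by at least 1, and of their 118 member peaks 19 rose and 4 fell, with a median difference of 0.13. The 14 genes that fell by as much had 18 member peaks, of which 3 fell and none rose. Over all genes tested, 156 rose and 40 fell by as much in shSMRT cells, and over all peaks 6.81% rose and 10.9% fell.

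Peaks near genes with little RNA had another split in shSMRT cells. Of the 3205 peaks whose gene passed the RNA filter, 5.18% rose and 10.6% fell, and of the 2423 others, 8.25% rose and 6.85% fell. Calls also followed the level of the peak. Among the 1407 members with the lowest levels (median 23.0 normalised reads), 97 rose and 43 fell in shSMRT cells and 13 rose and 48 fell in shNCOR cells. Among the 1407 with the highest levels (median 168), 68 rose and 264 fell in shSMRT cells and 151 rose and 58 fell in shNCOR cells. The part that depth, reads in peaks and scaling have in these splits was not tested. Over all peaks tested, 6.81% rose and 10.9% fell in shSMRT cells, and 4.6% rose and 4.01% fell in shNCOR cells. The same splits over peaks of every class are not given, so they are not read as particular to the members. By distance, the peaks within 5 kb, from 5 to 10 kb and from 10 to 20 kb numbered 1453, 1704 and 2471, and in that order 5.3%, 5.05% and 4.73% rose and 4.06%, 3.87% and 4.33% fell in shNCOR cells. In shSMRT against shGFP cells, 5.44%, 7.22% and 6.64% rose and 9.84%, 8.86% and 8.62% fell. In shSMRT against shNCOR cells, 5.16%, 6.22% and 6.8% were higher and 15.1%, 12.2% and 11.5% lower. The Pearson correlation with the gene's difference, over pairs that share libraries and genes, was 0.336, 0.262 and 0.250 in shNCOR against shGFP, 0.286, 0.225 and 0.221 in shSMRT against shGFP, and 0.365, 0.207 and 0.236 in shSMRT against shNCOR cells. These differences by distance were not tested.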

How the data were processed

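ATAC-seq values were deposited as read numbers in each peak, brought to a common library size of 10 M reads, as a HOMER peak annotation table on mm10, per the file headers. No header or label used here says whether peaks were called on pooled libraries. RNA values were deposited as RPKM per gene, counted over exons of 1 transcript a gene on both strands, per the file headers. Without strand, reads of overlapping genes cannot be told apart. Tools listed in the submitters' processing notes are DESeq2, MACS2, HOMER, HISAT2 and Bowtie2, with no version or role, beside the builds mm9 and mm10. Other assays of the series were not used here, and 1 peak with a cell that held no number was left out. The transcript targeted by the SMRT hairpin is not reported here.

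Depth was recovered from the steps between values: 100.0% of low values were whole reads to within 0.1. Peaks with a value of 10 in at least 3 of 9 libraries were tested as log2(value + 5), and genes with 1 RPKM in at least 3 libraries as log2(RPKM + 1), scales that understate changes of low features. limma 3.58.1 in R 4.3.3, with its trend option, was fitted to the 9 libraries of each assay together, and p-values were adjusted by Benjamini and Hochberg over all features, with a call at 0.05; ± is the SE of that fit. The fit was also run on simulated data in which all changed features lay well above the filter and the scaling was known. Its outcome is not given here, and it bears neither on changes of low features nor on the choice of scaling. A peak's gene is the nearest by the deposited annotation, and distances are those given there. Because the values are scaled, the planned count test on recovered reads was replaced by limma's voom, added after seeing the data. Libraries with the same replicate number deviated together weakly at most, so they were not paired. The median correlation of their deviations was -0.011 in ATAC-seq and 0.034 in RNA-seq. For libraries with different numbers it was 0.01 and -0.012. No 2 libraries agreed within sampling noise.

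Peaks and genes named are, by rule, the 10 largest and 10 smallest called peaks without overlap against shGFP (5 and 5 between knockdowns), the 10 largest and 10 smallest RNA changes of genes with a member peak, up to 4 called peaks a gene list and the genes with most peaks. Predicted genes were left out of the text, and others were chosen after their values were seen: the peak at Neu4, the loci with at least 3 called peaks (such as Gpnmb, Plxnd1 and Ctso), and the peaks with RefSeq sequence. The members and lists were chosen with earlier results of these data known. Alternatives were another scaling, pseudocount, filter or fold, voom, a replicate block and each library left out. Values were handled with Python 3.11.15 and pandas 2.3.3.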

Additional observations from a re-analysis of the deposited data

How the results depend on the processing

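Counts of called peaks moved most with the scaling, a log2 minimum of 0.5 and the control libraries. In shNCOR against shGFP cells, 280 higher peaks became 184 after scaling to reads in peaks and 172 with the minimum. In shSMRT against shGFP cells, 507 lower peaks became 278 after scaling to reads in peaks, 326 with TMM factors and 297 with the minimum. In shSMRT against shNCOR cells, 349 higher peaks became 551 after scaling to reads in peaks, and 711 lower peaks became 238 after that scaling, 302 after quantile normalisation, 329 with TMM factors and 363 with the minimum. With the minimum, genes higher and lower in RNA numbered 101 and 130 in shNCOR against shGFP, 243 and 80 in shSMRT against shGFP, and 252 and 67 in shSMRT against shNCOR cells. The causes were not tested.

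With each library left out in turn, higher and lower peaks ranged from 146 to 296 and 123 to 240 in shNCOR against shGFP, from 256 to 406 and 278 to 560 in shSMRT against shGFP, and from 255 to 373 and 542 to 680 in shSMRT against shNCOR cells. The share of called peaks with a gene called the same way ranged from 50.43 to 56.48%, 45.96 to 51.47% and 39.12 to 44.10% in these comparisons. It was 45.92% in shNCOR against shGFP cells over genes with 1 called peak, and after scaling to reads in peaks it was 53.28% in shSMRT against shGFP and 52.97% in shSMRT against shNCOR cells.

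With the replicate block, higher and lower peaks numbered 261 and 228, 361 and 493, and 354 and 677 in the 3 comparisons, and genes 527 and 575, 774 and 647, and 768 and 583. Deviations of same-numbered libraries had a median correlation of -0.011 in ATAC-seq and 0.034 in RNA-seq. With voom on recovered reads, chosen after seeing the data, peaks numbered 311 and 200, 450 and 599, and 291 and 657. For the 50 calls named for the size of their change, 1043 of 1050 values under all alternatives kept their side of the threshold, 7 lost it and none changed direction. Peaks named for other reasons are not in that count, and several of their calls were lost, as given beside them. The 50 were picked from these same libraries as the most extreme calls, so they were likely to keep their side. Over all called members, the fewest calls kept were 282 of 512 in shNCOR against shGFP cells (without shGFP replicate 2). They were 528 of 873 in shSMRT against shGFP cells (without shGFP replicate 1) and 546 of 1060 in shSMRT against shNCOR cells (quantile normalisation). The median SE was 0.3327 for the 1407 peaks with the lowest levels and 0.1191 for the 1407 with the highest, and the part that library depth has in it was not tested.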
